A study of Mus musculus with 6 samples.

Results

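The proteasome subunit genes are described here in livers of C57Bl6/J pups whose mothers ate diets with different oils. They were taken as all genes with a symbol of the form Psma, Psmb, Psmc, Psmd, Psme or Psmg followed by a digit and with a probe annotated to exactly 1 symbol, and the probe with the highest mean over the 6 arrays stood for its gene. The rule found 49 of the 19938 genes with such a probe. Of these, 47 encode subunits, activators or assembly chaperones of the proteasome, and 2 carry a matching symbol without being subunits: Psmc3ip, a meiotic recombination factor, and Psme3ip1, which encodes a protein that interacts with the activator Psme3. A probe annotated to both Psme2b and Psme2 was left out. The members lie on 16 chromosomes in the RefSeq annotation. Because the rule goes by symbol, it misses the lid subunit Sem1 and the ubiquitin receptor Adrm1, whose symbols differ. Adrm1 also had no probe annotated to it alone.

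Dams, 4 to 5 weeks old, received 1 of 3 diets of equal energy with 6 g% of oil. Control dams ate soybean oil, ALA dams flaxseed oil (alpha-linolenic acid, an omega-3 fatty acid, at 31.6%), and SFA dams coconut oil (saturated fatty acids at 48.51%). Sires shared the diet of their mates during mating and ate chow otherwise. Pup livers were collected no later than 1 day after birth. Each diet had 2 Affymetrix arrays, each with total RNA from 3 pooled livers. The labels do not say whether the pools of a diet came from different animals or litters, so the spread behind the p-values below is that between these samples and could be technical.

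The proteasome is the protease that degrades ubiquitin-tagged proteins in the cytosol and nucleus. Its barrel-shaped core particle is built of outer rings of alpha subunits, which gate the entrance, and inner rings of beta subunits, which hold the proteolytic sites. A regulatory particle caps the core: the ring of ATPases at its base unfolds substrates, and its lid removes the ubiquitin. Interferon-gamma induces the immunoproteasome subunits Psmb8, Psmb9 and Psmb10, which replace the constitutive catalytic subunits and favour peptides for MHC class I. PA28 (Psme1, Psme2 and Psme3) and PA200 (Psme4) are other activators that bind the ends of the core. When the proteasome falls short, mammalian cells raise its subunit genes together through the transcription factor Nfe2l1, and Nfe2l2 raises them in oxidative stress.

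Hepatocyte markers, as the labelled tissue requires, were bright on every array, with a mean log2 signal of 12.18 to 12.35 over 8 genes. Arrays of different diets correlated with r = 0.927 to 0.964 over the 10977 tested genes and arrays of the same diet with r = 0.977 to 0.986, where genes are not independent replicates. Both SFA arrays read lower over all probes. Their medians were 4.76 and 4.82, against 4.90 to 4.96 on the other arrays. Their 75th percentiles were 6.68 and 6.63, against 6.75 to 6.77. The deposited values carry this offset into each comparison with SFA. Both control arrays stood apart in cell type markers. The mean signal of dividing-cell markers was 4.66 and 4.82 in control, 6.16 and 7.47 in ALA and 7.68 and 7.59 in SFA. Macrophage markers averaged 7.50 and 7.30 in control and 8.39 to 8.83 in the other diets. Endothelial markers averaged 7.42 and 6.89 in control and 8.04 to 8.50 in the others. Stellate and mesenchymal markers averaged 6.52 and 6.34, against 7.47 to 7.69. Erythroid, megakaryocyte and dim granulocyte means also lay above both controls on every other array. Hepatocyte, lymphoid, leukocyte, bile duct and pancreas means did not. The pools also differed in sex-linked genes: Xist read 10.67 and 8.34 in control, 3.76 and 4.24 in ALA, and 9.46 and 9.51 in SFA. The part of cell makeup and of the sex of the pups in the differences below was not tested.

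The proteasome genes lay lower on the ALA diet. A gene was tested if its mean log2 signal was at least 5, which 45 of the 49 members passed. In ALA minus control, 39 of the 45 changes were below 0 and 6 above, with a median of -0.37 on the log2 scale (0.772-fold). The median over all tested genes was -0.01, and 51.7% of them were below 0. All members below 0 were of modest size, none beyond -0.71, and the standard errors (SE, n = 2 arrays per diet) lay between 0.11 and 0.23. Both ALA arrays showed the shift. Set against the control mean, the median member was at -0.29 on ALA replicate 1, where 41 of 45 members lay below it, and at -0.36 on ALA replicate 2, where 40 of 45 did. On the SFA arrays the median member was at -0.06 and -0.11, with 27 of 45 members below the control mean on each array. Of the 10977 tested genes, 5400 and 5811 lay below their control mean on the ALA arrays and 5803 and 6140 on the SFA arrays. In bulk liver RNA, fewer cells of a type and less RNA per cell cannot be told apart.

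**Figure D1:**
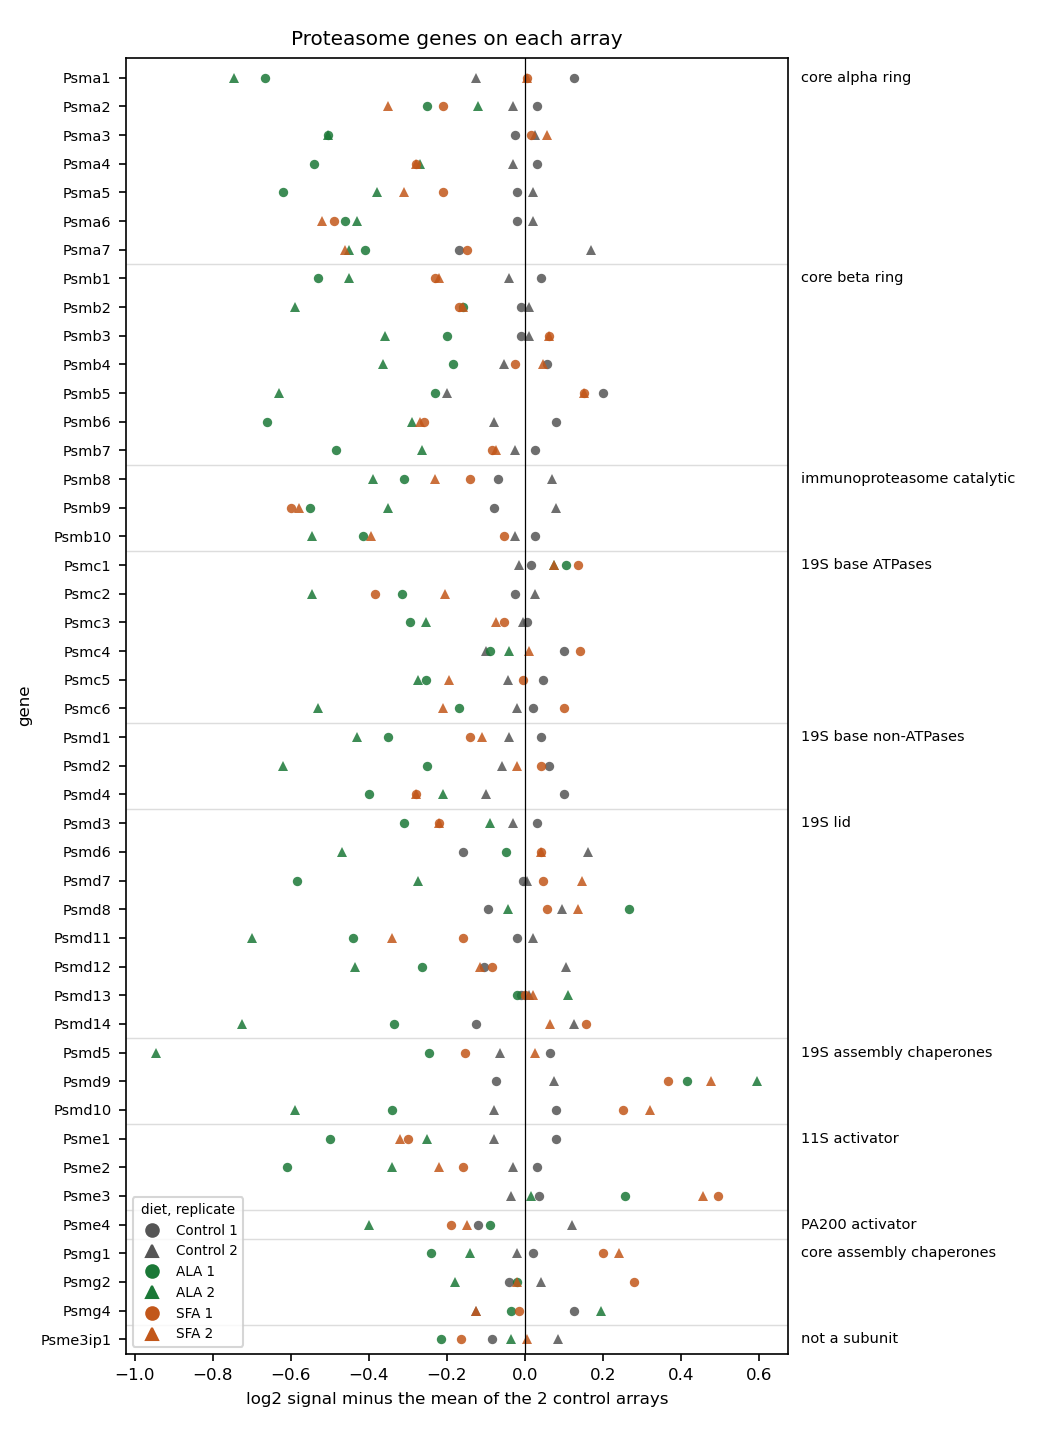
Log2 signal minus the mean of the control arrays (x axis) for each of the 45 tested proteasome genes (y axis), with colours for diets and shapes for replicates. The ALA points lie to the left of 0 for most genes (41 and 40 of 45 on the 2 ALA arrays), and the SFA points lie on both sides (27 of 45 below on each array).

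Few single genes passed the test. With limma and Benjamini-Hochberg adjustment over all 10977 genes, 2 of 45 members were called at an adjusted p below 0.05 in ALA minus control, both lower. This is 4.44% of the members, where 7.93% of all genes were called in either direction and 2.82% lower. Before adjustment, 25 of 45 members (55.6%) had a p below 0.05, against 24.7% of all genes. Counting members for which every ALA array lay below every control array gave 34 of 45 (75.6%), against 28% of all genes. For the opposite order the count was 2 of 45, the genes Psmc1 and Psmd9, against 27% of all genes. The shift was thus spread over many members in small steps.

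**Figure D2:**
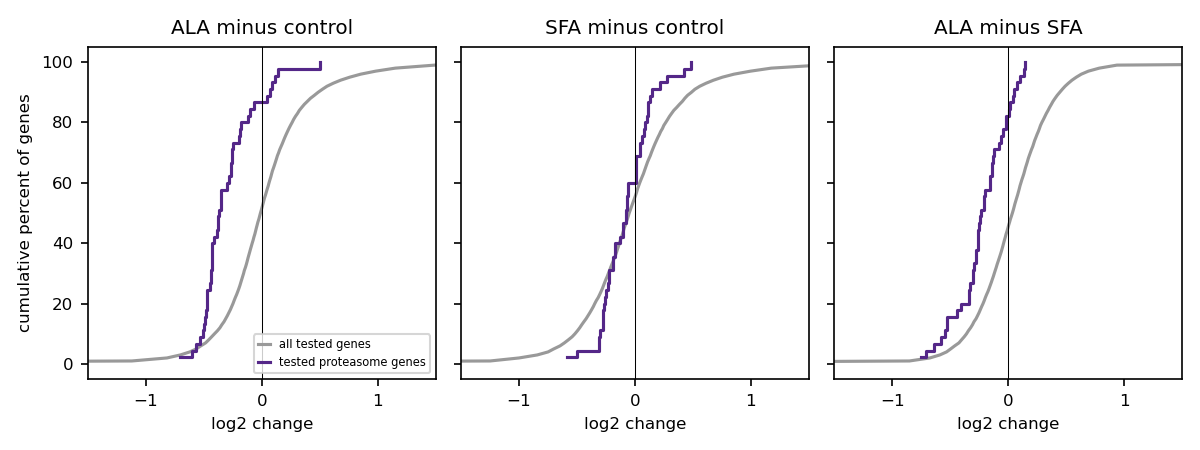
Cumulative percent of genes (y axis) against the log2 change (x axis, shown from -1.5 to 1.5) for the 45 tested proteasome genes and for all 10977 tested genes. In ALA minus control the proteasome curve lies to the left of the curve of all genes (median -0.37 against -0.01), in SFA minus control the medians are -0.08 and -0.05, and in ALA minus SFA they are -0.23 and 0.04.

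The promoters of 5 members that passed a test in any comparison are shown together with that of Psmd9, the member with the largest change above 0 on the ALA diet. Each run gives the 250 bases before the gene's start, 5′ to 3′ on the gene's strand, from RefSeq on GRCm38.p6. Where a gene has several annotated starts, only the most upstream is used, which need not be the start used in liver. Capitals mark matches, on either strand, to any of 6 motifs: the antioxidant response core TGANNNNGC (bound by Nfe2l1 and Nfe2l2), the cyclic AMP response element TGACGTCA, the CCAAT box, the GC box GGGCGG, the interferon-stimulated response core GAAANNGAA and the gamma-activated site TTCNNNGAA. Psma1 is at chr7:114276117-114276366 on the minus strand, Psma3 at chr12:70974373-70974622 and Psma6 at chr12:55383972-55384221 on the plus strand, Psmb9 at chr17:34187331-34187580 on the minus strand, Psmd10 at chrX:140956712-140956961 on the minus strand and Psmd9 at chr5:123227940-123228189 on the plus strand.
Psma1: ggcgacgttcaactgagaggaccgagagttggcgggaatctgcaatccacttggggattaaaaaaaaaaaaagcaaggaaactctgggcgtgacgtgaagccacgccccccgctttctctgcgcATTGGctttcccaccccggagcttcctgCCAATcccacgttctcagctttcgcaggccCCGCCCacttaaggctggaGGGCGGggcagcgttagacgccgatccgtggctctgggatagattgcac
Psma3: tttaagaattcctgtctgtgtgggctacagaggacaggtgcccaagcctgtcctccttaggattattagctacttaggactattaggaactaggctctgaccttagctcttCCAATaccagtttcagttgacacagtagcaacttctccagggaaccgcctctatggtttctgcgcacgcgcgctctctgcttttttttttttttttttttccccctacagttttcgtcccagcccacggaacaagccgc
Psma6: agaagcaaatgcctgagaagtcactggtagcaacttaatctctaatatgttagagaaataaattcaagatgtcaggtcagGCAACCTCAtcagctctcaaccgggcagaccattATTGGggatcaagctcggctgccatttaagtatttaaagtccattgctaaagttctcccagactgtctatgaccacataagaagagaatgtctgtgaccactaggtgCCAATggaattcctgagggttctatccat
Psmb9: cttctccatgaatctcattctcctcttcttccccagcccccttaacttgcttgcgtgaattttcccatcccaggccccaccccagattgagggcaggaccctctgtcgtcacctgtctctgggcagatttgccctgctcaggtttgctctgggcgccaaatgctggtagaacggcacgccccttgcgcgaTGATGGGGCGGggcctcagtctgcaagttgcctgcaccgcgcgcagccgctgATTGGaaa
Psmd10: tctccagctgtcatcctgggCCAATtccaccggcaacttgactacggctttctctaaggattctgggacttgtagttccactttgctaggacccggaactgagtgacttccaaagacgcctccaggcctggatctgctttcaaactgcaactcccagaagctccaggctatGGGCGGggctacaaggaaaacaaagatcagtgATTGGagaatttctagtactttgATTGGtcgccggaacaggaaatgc
Psmd9: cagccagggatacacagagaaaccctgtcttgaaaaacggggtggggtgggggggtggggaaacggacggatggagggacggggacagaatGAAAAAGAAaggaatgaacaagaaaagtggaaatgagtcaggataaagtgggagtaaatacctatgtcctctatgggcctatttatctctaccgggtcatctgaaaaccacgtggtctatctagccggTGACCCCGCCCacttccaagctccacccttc

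Psma1 held 2 CCAAT boxes and 2 GC boxes in this stretch, and Psma3 held a single CCAAT box. Psmb9 and Psmd9 each held an antioxidant response core that overlaps a GC box, and the core in Psma6 stands alone. Windows of 250 bases before to 50 after the start were found for 41 of the 49 members. The antioxidant response core was in 24 of these 41 (58.5%), against 41.4% of the 27025 genes with a window. The GC box was also in 24 of 41 (58.5%), against 35.9%. The CCAAT box was in 16 members (39%), against 38% of all genes. The interferon-stimulated core was in 6 members (14.6%, all genes 8.58%), the gamma-activated site in 3 (7.32%, all genes 8.42%) and the cyclic AMP response element in 0 (all genes 1.85%). A match describes letters in this window and is not a binding site.

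The outer ring carried both calls on the ALA diet, in 2 of its 7 genes. Of all genes, 7.93% were called in either direction and 2.82% lower. All 7 alpha genes lay below control with arrays that did not overlap (28% of all genes), with a median change of -0.44. Psma1, the gene of an alpha ring subunit, read 9.53 and 9.28 (log2 signal) on control, 8.74 and 8.66 on ALA, and 9.41 on both SFA arrays. The ALA arrays thus stood apart from both other diets. Psma1 fell by 0.71 against control (SE 0.13, adjusted p = 0.0262), and it lay at -0.71 against SFA, where the adjusted p was 0.0552. Psma3, the alpha subunit gene next in the ranking, was at 9.54 and 9.59 on control, 9.06 on both ALA arrays, and 9.58 and 9.62 on SFA. Again the ALA arrays alone were low. It fell by 0.51 (SE 0.12, adjusted p = 0.0446), and against SFA it was at -0.54 (adjusted p = 0.0679). The 2 other probes for Psma3 were also called lower in ALA minus control when each was tested on its own, an alternative added after the data were seen, at -0.53 (adjusted p = 0.0482) and -0.67 (adjusted p = 0.022). Near-identical copies of a subunit gene can share probe sequence, and the probes of a gene are not replicates. Both calls were sensitive to the number of arrays: leaving out any of the 6 arrays, controls and SFA included, ended the call of Psma1 (changes of -0.83 to -0.58, adjusted p up to 0.102) and of Psma3 (-0.53 to -0.48, adjusted p up to 0.162).

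The other alpha genes had no call on the ALA diet. Psma5 was at 7.88 and 7.92 on control, 7.28 and 7.52 on ALA, and 7.69 and 7.59 on SFA, a change of -0.50 on ALA (SE 0.13, adjusted p = 0.0699). Its dimmer probe, tested on its own in the same added alternative, passed at -0.63 (adjusted p = 0.0308). Psma4 and Psma7 lay at -0.41 and -0.43 against control, and Psma2 was nearest to 0 at -0.18. Its arrays read 7.65 and 7.59 on control, 7.37 and 7.50 on ALA, and 7.41 and 7.27 on SFA, so for Psma2 both diets lay below control and the SFA arrays overlapped the ALA arrays. Psma6, described with the SFA diet below, was at -0.44 on ALA (adjusted p = 0.0632).

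The inner ring lay below control as well. All 7 constitutive beta genes lay below control on ALA with arrays that did not overlap, from -0.49 to -0.27 (median -0.38), where 28% of all genes lay below without overlap. None passed limma's test, and 3 of 7 had an unadjusted p below 0.05, against 24.7% of all genes. Psmb1, a beta subunit without a proteolytic site, was at 8.15 and 8.07 on control, 7.58 and 7.66 on ALA, and 7.88 and 7.89 on SFA. The SFA arrays lay between the other diets. The change on ALA was -0.49 (SE 0.12, adjusted p = 0.0517). Psmb5, which carries the chymotrypsin-like site, was at 10.87 and 10.47 on control, 10.44 and 10.04 on ALA, and 10.82 on both SFA arrays. Its replicates lay far apart on control and on ALA, and the change was -0.43 (SE 0.19, adjusted p = 0.212). Psmb6, with the caspase-like site, was at 8.97 and 8.81 on control, 8.23 and 8.60 on ALA, and 8.63 and 8.62 on SFA. Psmb7, with the trypsin-like site, was at 9.51 and 9.46 on control, 9.0 and 9.22 on ALA, and 9.40 and 9.41 on SFA. Both lay below control on ALA, Psmb6 at -0.47 and Psmb7 at -0.38, without a call. The structural genes Psmb2, Psmb3 and Psmb4 lay at -0.37, -0.28 and -0.27. The dimmer Psmb3 probe, in the added alternative, lay at -0.25 on ALA (adjusted p = 0.36).

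Over the core particle as a whole, all 14 genes were below control on ALA, against 9 of 14 on SFA. The median core change was -0.43 on ALA and -0.20 on SFA. Both comparisons share the control arrays, so they are not independent. Set directly against SFA, 12 of the 14 core genes were lower on ALA, with a median of -0.25.

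**Figure D3:**
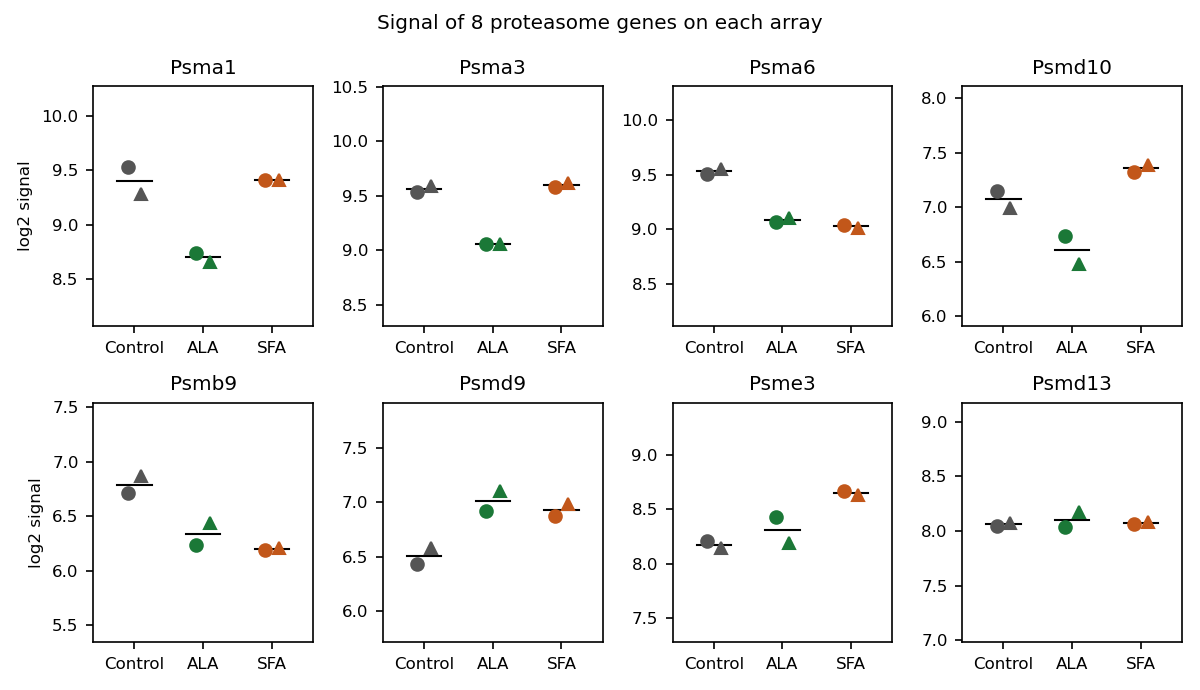
Log2 signal (y axis, spanning the same range in each panel and not starting at 0) of 8 proteasome genes on the control, ALA and SFA arrays; circles are replicate 1, triangles replicate 2 and bars the mean. Psma1, Psma3 and Psmd10 are low on the ALA arrays alone, Psma6 and Psmb9 are low on both diets, Psmd9 is high on both, Psme3 is high on SFA, and Psmd13 is level.

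Of the 3 immunoproteasome genes, 1 passed the test, on SFA, where 13.8% of all genes were called and 7.15% were called lower. On both diets the arrays of all 3 lay below their controls without overlap, as 28% of all genes did on ALA and 35.7% on SFA. Psmb9, which replaces Psmb6, was at 6.71 and 6.87 on control, 6.24 and 6.44 on ALA, and 6.19 and 6.21 on SFA. Every array of either diet lay below every control array. Psmb9 fell by 0.59 on SFA (SE 0.13, adjusted p = 0.0332), and its change on ALA was -0.45 (adjusted p = 0.0888). Psmb10, which replaces Psmb7, was at 7.83 and 7.78 on control, 7.39 and 7.26 on ALA, and 7.75 and 7.41 on SFA. Its SFA replicates differed from each other more than the control arrays did, and no call was made (-0.48 on ALA, adjusted p = 0.0987, and -0.22 on SFA, adjusted p = 0.344). Psmb8, which replaces Psmb5, was at 6.75 and 6.89 on control, 6.51 and 6.43 on ALA, and 6.68 and 6.59 on SFA. It lay at -0.35 on ALA and -0.19 on SFA, without a call. The call for Psmb9 was lost on leaving out either control array or either SFA array (-0.68 to -0.51). It was also lost with quantile normalization (-0.47, adjusted p = 0.0602) and with cyclic loess (-0.49, adjusted p = 0.0538). Centring each array on its 75th percentile ended it too (-0.50, adjusted p = 0.0547).

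Each immunoproteasome gene was set against the constitutive gene it replaces by subtracting the constitutive change, array by array, from its own change against the control mean. For Psmb9 and Psmb6 this difference of changes was 0.11 and -0.06 on ALA and -0.34 and -0.32 on SFA, while the control arrays spread from -0.16 to 0.16. For Psmb8 and Psmb5 it was -0.08 and 0.24 on ALA and -0.28 and -0.39 on SFA, with controls from -0.27 to 0.27. For Psmb10 and Psmb7 it was 0.07 and -0.27 on ALA and 0.03 and -0.32 on SFA, with controls within 0.01 of 0. In this order, the mean differences were 0.02, 0.08 and -0.10 on ALA and -0.33, -0.34 and -0.14 on SFA. Only for the pair of Psmb9 and Psmb6 and the pair of Psmb8 and Psmb5 did both SFA arrays lie below both controls. These differences are descriptions and were not tested.

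**Figure D4:**
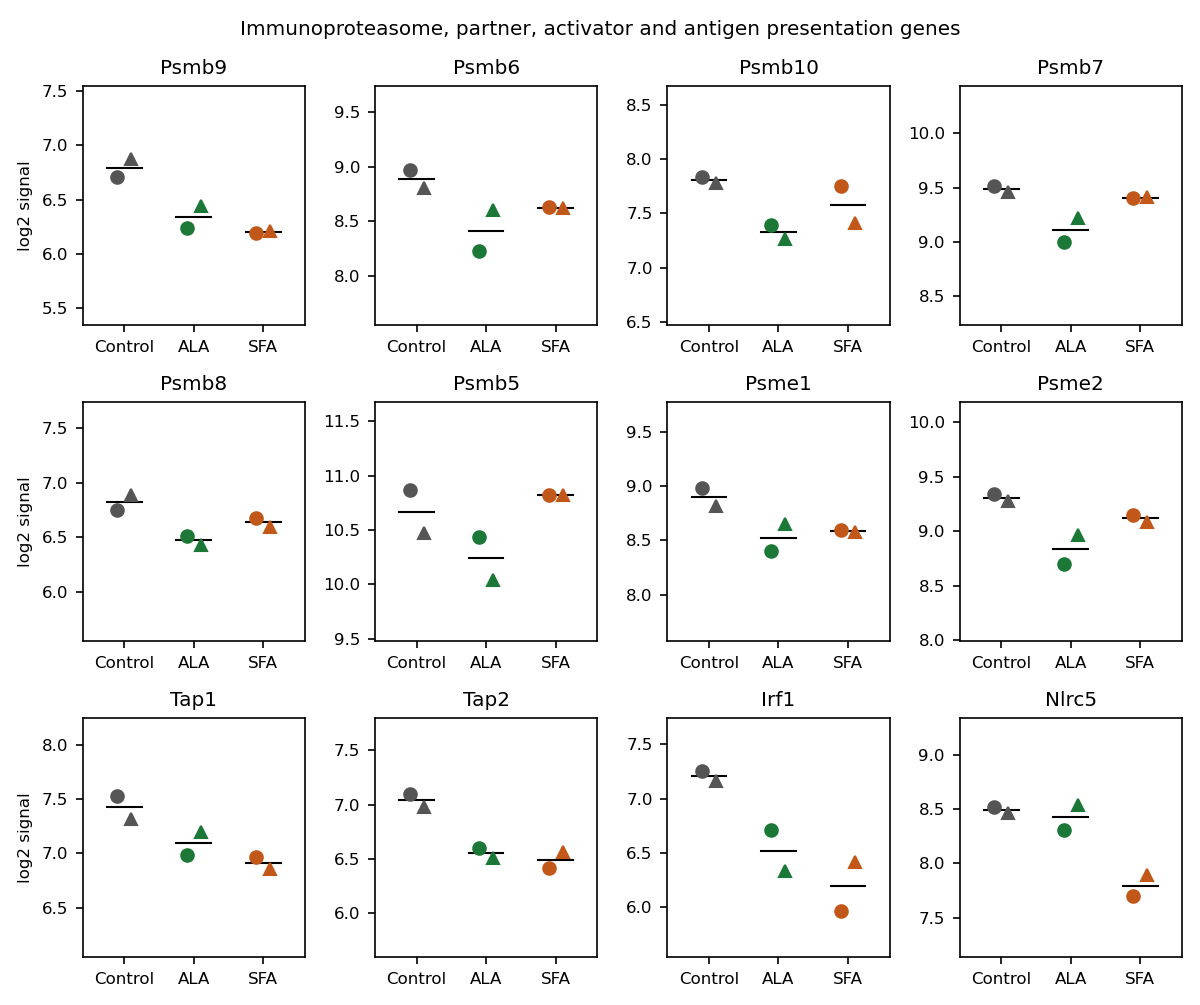
Log2 signal (y axis, same span in each panel and not starting at 0) of immunoproteasome genes, their constitutive partners and the PA28 and antigen presentation genes on each array; circles are replicate 1, triangles replicate 2 and bars the mean. Psmb9 lies lower on both diets (6.19 to 6.44, controls 6.71 and 6.87), and Psmb5 lies at 10.82 on both SFA arrays, inside its control range. Irf1 and Nlrc5 fell on SFA, and the ALA arrays of Irf1 also lay below its controls.

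Genes that act with the immunoproteasome were compared as a list of 20 antigen presentation genes and their inducers, of which 16 were tested. On SFA, 4 of the 16 fell and 1 rose, where 13.8% of all genes were called and 7.15% were called lower. Tap2, a chain of the transporter that carries proteasomal peptides into the endoplasmic reticulum, fell by 0.55 (adjusted p = 0.0346). Irf1, a transcription factor that induces Psmb9 and Tap1, fell by 1.01 (adjusted p = 0.0209), from 7.25 and 7.16 on control to 5.97 and 6.42 on SFA. Stat2, a signalling factor of type I interferon, fell by 0.67 (adjusted p = 0.0196). Nlrc5, a transactivator of MHC class I genes, fell by 0.70 (adjusted p = 0.0241). On ALA these 4 had no call: Tap2 lay at -0.49 (adjusted p = 0.064), Irf1 at -0.69 (adjusted p = 0.0777), Stat2 at -0.26 and Nlrc5 at -0.06. The ALA arrays of Irf1 read 6.71 and 6.33, below both controls and overlapping SFA. Ifngr1, a chain of the interferon-gamma receptor, rose by 1.20 on SFA (adjusted p = 0.00976) and by 0.87 on ALA (adjusted p = 0.0331), where it was the only call of the list (7.93% of all genes were called). Tap1 was at 7.53 and 7.32 on control, 6.99 and 7.20 on ALA, and 6.97 and 6.86 on SFA, a change of -0.52 on SFA (adjusted p = 0.0558). B2m, the light chain of MHC class I, lay at -0.12 on ALA and -0.16 on SFA with no call. The median change of the 16 genes was -0.16 on ALA and -0.17 on SFA. Markers of immune cells, which can carry these genes, also moved with diet. Macrophage markers were called higher in 10 of 10 on ALA and 7 of 10 on SFA. Of 4 leukocyte markers, 2 lay below control on ALA and 3 on SFA, with Laptm5 called higher on each diet and Ptprc at -0.40 on SFA without a call, and their mean signal was 6.66 to 6.79 on control, 6.81 to 7.22 on ALA and 6.75 to 6.80 on SFA. Lymphoid markers were dim, with means of 4.81 to 5.15 over 6 genes on every array, and only 2 were tested. Cd3e and Cd79b lay at -0.34 and -0.24 on SFA and at 0.04 and 0.26 on ALA, without a call. The part of these cells in the values of Psmb9 and the other genes was not tested.

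The regulatory particle followed the core on the ALA diet, with 14 of 17 base and lid genes below control and a median of -0.30. No gene was called by limma, and 8 of 17 had an unadjusted p below 0.05, against 24.7% of all genes. Of the 6 ATPases, 5 lay below control, from -0.43 to -0.07. Psmc2 was the lowest, at 7.53 and 7.58 on control, 7.24 and 7.01 on ALA, and 7.17 and 7.35 on SFA. Its change was -0.43 on ALA (adjusted p = 0.108) and -0.30 on SFA, so both diets lay below control. Psmc6 was at 8.11 and 8.07 on control, 7.92 and 7.56 on ALA, and 8.19 and 7.88 on SFA, with ALA and SFA arrays that overlapped. Psmc1 was at 8.38 and 8.35 on control, 8.47 and 8.44 on ALA, and 8.50 and 8.44 on SFA, a change of 0.09 on ALA. Its probes disagreed in sign: the dimmer one, in the added alternative, lay at -0.40 on ALA (adjusted p = 0.107). Psmc3, Psmc4 and Psmc5 were at -0.27, -0.07 and -0.26.

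The base also holds the large scaffold subunits Psmd1 and Psmd2 and the ubiquitin receptor Psmd4. Psmd2 was at 9.57 and 9.45 on control, 9.26 and 8.89 on ALA, and 9.55 and 9.49 on SFA, so only the ALA arrays were low (-0.44 against control and against SFA, adjusted p = 0.141 and 0.164). The dimmer Psmd2 probe, in the added alternative, lay at -0.30 on ALA (adjusted p = 0.31). It read 9.36 and 9.37 on control and 9.28 and 8.84 on ALA. Psmd1 lay at -0.39 on ALA (adjusted p = 0.0917). Psmd4 was at 7.70 and 7.50 on control, 7.20 and 7.39 on ALA, and 7.32 on both SFA arrays. It lay at -0.30 on ALA and -0.28 on SFA, both without a call.

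In the lid, 6 of 8 genes lay below control on ALA (median -0.30). Psmd11, a scaffold subunit of the lid, was at 8.58 and 8.62 on control, 8.16 and 7.90 on ALA, and 8.44 and 8.26 on SFA. The diets did not overlap, with ALA lowest, and the change on ALA was -0.57 (SE 0.14, adjusted p = 0.0552). Psmd14, the deubiquitinase of the lid, was at 8.86 and 9.11 on control, 8.65 and 8.26 on ALA, and 9.14 and 9.05 on SFA. It lay at -0.53 against control (adjusted p = 0.108) and -0.64 against SFA (adjusted p = 0.101). Its partner Psmd7 showed the same order, at -0.43 and -0.53. Psmd12, Psmd6 and Psmd3 lay at -0.35, -0.26 and -0.20 against control. Psmd8 and Psmd13 did not share the shift. Psmd8 was at 8.94 and 9.13 on control, 9.30 and 8.99 on ALA, and 9.09 and 9.17 on SFA, and Psmd13 kept to 8.04 to 8.17 on all 6 arrays. Their changes on ALA were 0.11 (95% interval -0.25 to 0.46) and 0.04 (95% interval -0.24 to 0.33).

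The chaperones that assemble the regulatory particle had no common direction. Psmd10, also known as gankyrin, was at 7.15 and 6.99 on control, 6.73 and 6.48 on ALA, and 7.32 and 7.39 on SFA. The 3 diets did not overlap, with ALA lowest and SFA highest. Psmd10 changed between diets by the F test over the 3 diets (adjusted p = 0.0346). Its separate comparisons were at -0.47 for ALA minus control (adjusted p = 0.0882), 0.28 for SFA minus control (adjusted p = 0.207) and -0.75 for ALA minus SFA (adjusted p = 0.0543). Psmd10 lies on the X chromosome, and Xist was low on both ALA arrays and high on both SFA arrays. The part of this in its values was not tested. Psmd5 was at 7.29 and 7.16 on control, 6.98 and 6.28 on ALA, and 7.07 and 7.25 on SFA, with ALA replicates far apart. Its change of -0.60 had the highest SE of the members, 0.23. Psmd9 went the other way, at 6.43 and 6.58 on control, 6.92 and 7.10 on ALA, and 6.87 and 6.98 on SFA. All arrays of both diets lay above both controls, with changes of 0.50 on ALA (SE 0.13, adjusted p = 0.0687) and 0.42 on SFA (adjusted p = 0.0842).

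Among the activators, the PA28 genes split. Psme1 was at 8.98 and 8.82 on control, 8.40 and 8.65 on ALA, and 8.60 and 8.58 on SFA. Psme2, whose product forms a ring with that of Psme1, was at 9.34 and 9.28 on control, 8.70 and 8.97 on ALA, and 9.15 and 9.09 on SFA. Both lay below control on both diets, at -0.38 and -0.47 on ALA and -0.31 and -0.19 on SFA, with no call. Psme3, which encodes the nuclear PA28 form, was at 8.21 and 8.14 on control, 8.43 and 8.19 on ALA, and 8.67 and 8.63 on SFA. Only its SFA arrays stood above all others, at 0.48 against control (SE 0.13, adjusted p = 0.0572). Psme4, the PA200 gene, was at 8.97 and 9.21 on control, 9.0 and 8.69 on ALA, and 8.90 and 8.94 on SFA, a change of -0.25 on ALA with overlapping arrays.

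The chaperones that assemble the core lay close to control on ALA (median -0.10 over 3 tested genes). Psmg1 was at 7.69 and 7.65 on control, 7.43 and 7.53 on ALA, and 7.87 and 7.91 on SFA. The diets did not overlap, and Psmg1 lay at -0.41 against SFA (adjusted p = 0.115). Psmg4 was at 6.57 and 6.32 on control, 6.41 and 6.64 on ALA, and 6.43 and 6.32 on SFA, with all diets overlapping. Psmg2 lay at -0.10 on ALA and 0.13 on SFA. The 4 members below the signal minimum were the testis subunit gene Psma8 (3.82 to 4.19), the thymus subunit gene Psmb11 (3.98 to 4.37), the core chaperone gene Psmg3 (3.97 to 4.74) and Psmc3ip (4.10 to 4.74). Psme3ip1 was at -0.12 on ALA and -0.08 on SFA.

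**Figure D5:**
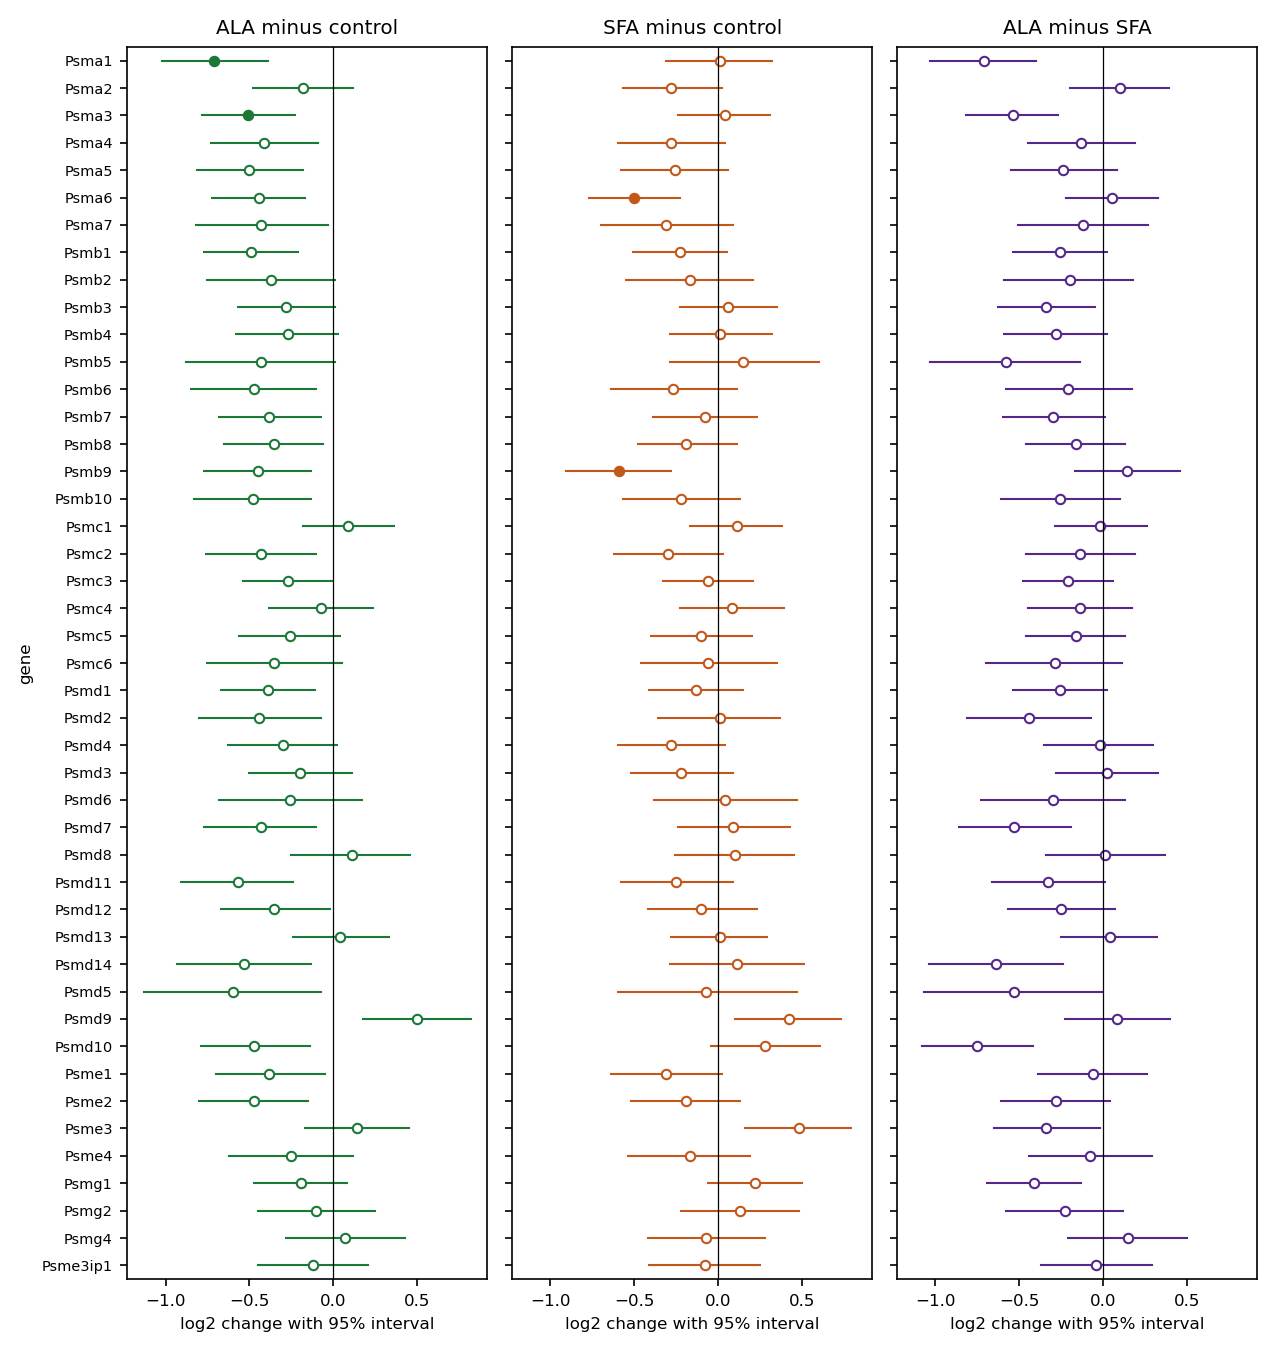
Log2 change (x axis) with its 95% interval for each of the 45 tested proteasome genes (y axis) in the 3 comparisons of diets; filled points have an adjusted p below 0.05. Psma1 and Psma3 are filled in ALA minus control, Psma6 and Psmb9 in SFA minus control, and none in ALA minus SFA.

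On the SFA diet the members had no common direction. In SFA minus control, 27 of 45 changes lay below 0 and 18 above, with a median of -0.08, where the median of all genes was -0.05. Of all genes, 55.2% lay below 0. The test called 2 of 45 members (4.44%), both lower, against 13.8% of all genes in either direction and 7.15% lower. Without adjustment 4 of 45 (8.89%) had a p below 0.05, against 31.9% of all genes. Arrays did not overlap in the lower direction for 20 members (44.4%, all genes 35.7%) and in the higher direction for 7 (15.6%, all genes 28.6%). By class, the median was -0.28 for the alpha ring, -0.22 for the immunoproteasome genes, -0.08 for the beta ring, -0.06 for the ATPases and 0.03 for the lid. Further classes lay at -0.19 (PA28), -0.17 (Psme4), -0.13 (base genes other than ATPases), 0.13 (core chaperones) and 0.28 (chaperones of the regulatory particle). The SFA arrays read lower over all probes. With each array centred on its 75th percentile, the member median was 0.01 in place of -0.08.

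Psma6 was the second call on SFA beside Psmb9. This alpha ring gene was at 9.51 and 9.55 on control, 9.07 and 9.10 on ALA, and 9.04 and 9.01 on SFA. Both diets lay well below control and close to each other. Psma6 fell by 0.50 on SFA (SE 0.12, adjusted p = 0.0352), and ALA minus SFA was 0.05 (95% interval -0.22 to 0.33). The call was lost on leaving out either control array or either SFA array (-0.52 to -0.48), and with each array centred on its 75th percentile (-0.40, adjusted p = 0.0602). By the F test over the diets, 4 of 45 members (8.89%) passed, against 13.5% of all genes: Psma1 (adjusted p = 0.025), Psmd10 (adjusted p = 0.0346), Psma3 (adjusted p = 0.0377) and Psma6 (adjusted p = 0.0488).

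Set directly against each other, ALA lay below SFA for 37 of 45 members, with a median of -0.23, where the median of all genes was 0.04. Of all genes, 45.3% lay lower on ALA than on SFA. The test called 0 of 45 members, against 1.53% of all genes, and 10 of 45 (22.2%) had an unadjusted p below 0.05, against 22.4%. All ALA arrays lay below all SFA arrays for 26 members (57.8%, all genes 24.4%) and above them for 2 (4.44%, all genes 31.4%), namely Psma6 and Psmb9. The lowest values in this comparison were those of Psmd10 (-0.75), Psma1 (-0.71), Psmd14 (-0.64), Psmb5 (-0.58) and Psma3 (-0.54). In all 5, each SFA array lay within or above the range of the controls. Xist was low on both ALA arrays and high on both SFA arrays. Diet and sex-linked signal thus cannot be told apart in this comparison, and the part of the sex of the pups was not tested.

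Genes that act around the proteasome were taken from lists, described by their medians and counts, which no test set against the subunit genes. The list of proteasome-associated genes and regulators held 30 symbols, among them the lid subunit Sem1 and its synonym Shfm1. Of its genes, 23 were tested and 17 lay below control on ALA, with a median of -0.12. Limma called 0 (7.93% of all genes), and 6 had an unadjusted p below 0.05 (24.7% of all genes). Sem1 lay at -0.14 on ALA and -0.30 on SFA, without a call. Single genes of the list lay as far from control as the subunit genes did. Pomp, which matures the core, was at 8.76 and 8.58 on control, 8.23 and 8.20 on ALA, and 8.26 and 8.29 on SFA, below control on both diets (-0.46, adjusted p = 0.072, and -0.40, adjusted p = 0.0805). Psmf1, an inhibitor of the core, was at 8.12 and 8.21 on control, 8.48 and 8.68 on ALA, and 8.45 and 8.38 on SFA, above control on both (0.42 and 0.25, no call). Nfe2l1 was level at 8.21 to 8.51 on all arrays, with changes of -0.06 on ALA and -0.03 on SFA. Nfe2l2 was at 9.86 and 9.38 on control, 9.17 and 8.87 on ALA, and 9.20 and 9.22 on SFA, a change of -0.60 on ALA (SE 0.19, adjusted p = 0.103). Adrm1 had no probe annotated to it alone.

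Of 23 tested ubiquitin and ubiquitin-conjugation genes, 20 lay below control on ALA with a median of -0.09. None was called by limma, and 2 had an unadjusted p below 0.05, where the shares of all genes were again 7.93% and 24.7%. On SFA the median was 0.01 and 2 of 23 were called, against 13.8% of all genes: the ligase subunit gene Rbx1 rose by 0.51 (adjusted p = 0.0399), and the large ligase gene Huwe1 fell by 0.50 (adjusted p = 0.0402). Of 26 autophagy and lysosome genes, 16 lay below control on ALA (median -0.09), with no call and 4 genes at an unadjusted p below 0.05, against the same shares of all genes. On SFA 20 lay below (median -0.10) and 1 of 26 was called, against 13.8% of all genes: Atg7, an enzyme of autophagosome formation, fell by 0.63 (adjusted p = 0.0299). The medians of these lists are set beside -0.01 and -0.05 over all genes on ALA and SFA, where 51.7% and 55.2% of all genes lay below 0.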

How the data were processed

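Liver RNA from 3 maternal diets, 2 arrays each, was read from the authors' table of log2 values; RMA and Partek 6.6 are the tools named in the submitters' processing notes, and the log2 scale is read from the deposited range, 1.98 to 13.12. The members, classes and lists were chosen with earlier results of these data known. Gene symbols came from the platform annotation: of 35556 probes, 21789 had 1 symbol, and the 1621 with several and 12146 with none were left out. A gene's brightest probe was used. Genes with a mean log2 signal of at least 5 were tested, 10977 in all. Levels are not compared between probes.

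In R 4.3.3 with limma 3.58.1, a mean per diet was fitted to all 6 arrays (3 residual degrees of freedom) with eBayes, and p-values, two-sided, were adjusted by Benjamini-Hochberg. An adjusted p below 0.05 is a call. The number of arrays limits the precision. The fit was tested on simulated data.

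Values on every array are given for called members, catalytic and activator genes and the extremes of each class. From the lists, called genes and 7 regulators set by name are given. Promoters come from RefSeq (GRCm38.p6), with only the most upstream window of each gene used, and 8 members had no window. Alternatives covered probe choice, normalization, centring, the signal minimum, the variance model, the arrays in the fit, the replicate number as a block and leaving out each array.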

Additional observations from a re-analysis of the deposited data

How the results depend on the processing

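The median change kept its direction in ALA minus control under every alternative run, at -0.37 to -0.29 when single arrays were left out, and moved to -0.34 from -0.23 in ALA minus SFA with centring on the 75th percentile. In SFA minus control that centring gave 0.01 in place of -0.08. The counts of called members were less stable. In ALA minus control (2 called), the count was 1 with quantile normalization, 4 with the 75th percentile centring, 1 with no signal minimum, 7 with a minimum of 6, 0 with only the 4 arrays compared, 8 with an intensity trend, 1 with the replicate block and 0 to 1 without single arrays. In SFA minus control (2 called), it was 1 with that centring (Psme3, higher, with Psma6 and Psmb9 both lost), 2 with quantile normalization or cyclic loess (Psma6 lower and Psme3 higher), 0 with no minimum, 3 with a minimum of 6, 3 with only the 4 arrays compared, 3 with the trend, 1 with the replicate block and 0 to 3 without single arrays. In ALA minus SFA (0 called) it was 3 with a minimum of 6 and 3 with the trend. By the F test (4 called) it was 1 with no minimum, 6 with a minimum of 6, 8 with the trend, 2 with the replicate block and 0 to 2 without single arrays. A minimum of 6 tests fewer genes and no minimum tests more. With that minimum of 6, 6 of the 7 members called in ALA minus control were lower, and Psmd9 was higher. Same-numbered arrays did not deviate together (r = -0.03, -0.004 and 0.02 over genes), so no pairing by replicate number was visible. This does not show that the samples were handled independently. Where 1 array of a diet was left, it was assumed to vary like the other groups. Psma1 was called in 8 of 15 alternatives, Psma3 in 5, Psma6 in 8 and Psmb9 in 7, and Psme3 was called higher on SFA in 8 of 15. No called change turned its sign. Changes that were not called turned sign in any alternative for 5 members in ALA minus control, 16 in SFA minus control and 13 in ALA minus SFA, none larger than 0.20 in size. Otherwise the cause was not tested.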
